A study of Mus musculus with 46 samples.

Results

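The genes described here are 45 mouse genes of mitosis and of the mitotic spindle, listed by symbol for their role in cell division. They were followed across 41 mammary tumors and 5 normal glands, each profiled on its own Affymetrix mouse array, and the tumors came from 8 genetically engineered models of breast cancer. Each gene was read from the probe set annotated to it alone that had the highest mean over the 46 arrays. That left 43 of the 45 genes, since Ccnb1 and Espl1 had no such probe set in the annotation used and were not analysed here. All 43 passed the filter on low values (a log2 value over 4 in at least 3 arrays) and stood among 9329 genes tested. Nuf2 passed it on 15 arrays, 14 of basal-type and 1 of luminal-type tumors, and its values elsewhere lay near the floor, so its differences between models are given as a description with no p. Counts of members called between models, or between tumors and glands, include Nuf2, and the main counts that it entered are also given without it. The other 42 were over 4 on 36 arrays or more.

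The C3TAg tumors (n = 5, FVB strain) carried the C3(1)/SV40 T/t-antigen transgene, driven by the C3(1) promoter, whose large T protein binds the p53 and Rb proteins. The p53-/- tumors (n = 7, Balb/C) came from transplants of mammary tissue in which MMTV-cre had deleted both floxed p53 alleles. The Brca1-/-p53+/- tumors (n = 5, 129B6/FVB) had MMTV-cre and floxed BRCA1 alleles together with loss of a single p53 allele. The other 5 models were FVB mice in which the mouse mammary tumor virus (MMTV) promoter drove an oncogene: MMTV-Hras (n = 5, H-Ras), MMTV-H2N (n = 5, Her2/neu), MMTV-C-Myc (n = 4, c-Myc), MMTV-PymT (n = 6, the polyoma middle T antigen) and MMTV-Wnt (n = 4, Wnt1). That promoter is active in mammary epithelium and also at ectopic sites. The study placed the first 3 models in a basal class and the other 5 in a luminal class. Tumors came from individual female mice, and the FVB pregnant glands (n = 5) from untransformed mammary tissue of mice late in pregnancy. Glands of the other 2 strains were not analysed here, so strain and model cannot be told apart for p53-/- and Brca1-/-p53+/-.

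Mitosis is started by Cdk1 bound to A- and B-type cyclins, which Cdc25 phosphatases activate. The Aurora and Polo-like kinases, kinesin motors and kinetochore proteins then build the spindle and attach the chromosomes to it, condensin and topoisomerase II compact the chromosomes, and the spindle checkpoint holds back the anaphase-promoting complex until attachment is complete. Most of these genes are transcribed late in the cell cycle by the MuvB complex with B-Myb and FoxM1, so their RNA is high in dividing cells and low in resting ones. In whole tissue, a smaller share of dividing cells and less of this RNA in each cell cannot be told apart.

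The promoters of these genes are known for a short element, the cell cycle genes homology region (CHR, TTTGAA), and for CCAAT boxes upstream of it, which is why the stretches of 7 promoters are shown. They were taken from RefSeq (build GRCm38.p6) as 100 bases before the transcript start and 20 bases from it, 5′ to 3′ on the gene's strand. Capitals mark every match to TTTGAA or CCAAT on either strand. Cdk1, Ccnb2 and Cdc20 are described in full further on, Cenpf, Racgap1 and Hmmr serve other steps of division, and Nuf2, which with Nek2 followed the others least closely, is shown as one of the members whose stretch held neither motif. For Cenpf and Hmmr the transcript start used lay 21 and 27 bases from the outer end of the annotated gene.
Cdk1, chr10:69352893-69353012, minus strand: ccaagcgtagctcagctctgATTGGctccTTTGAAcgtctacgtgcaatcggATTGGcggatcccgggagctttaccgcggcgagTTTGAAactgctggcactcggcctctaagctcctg
Ccnb2, chr9:70421535-70421654, minus strand: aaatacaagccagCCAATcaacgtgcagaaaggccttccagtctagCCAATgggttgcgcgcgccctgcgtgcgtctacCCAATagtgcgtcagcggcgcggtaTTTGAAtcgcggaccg
Cdc20, chr4:118437324-118437443, minus strand: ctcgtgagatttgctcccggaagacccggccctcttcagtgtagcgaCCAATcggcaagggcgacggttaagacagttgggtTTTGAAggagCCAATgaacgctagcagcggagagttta
Cenpf, chr1:189688067-189688186, minus strand: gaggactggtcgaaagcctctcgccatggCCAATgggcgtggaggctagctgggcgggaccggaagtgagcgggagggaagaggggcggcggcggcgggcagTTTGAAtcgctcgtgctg
Racgap1, chr15:99651637-99651756, minus strand: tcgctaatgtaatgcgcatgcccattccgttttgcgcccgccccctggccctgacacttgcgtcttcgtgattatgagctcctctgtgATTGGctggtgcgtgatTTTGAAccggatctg
Hmmr, chr11:40733418-40733537, minus strand: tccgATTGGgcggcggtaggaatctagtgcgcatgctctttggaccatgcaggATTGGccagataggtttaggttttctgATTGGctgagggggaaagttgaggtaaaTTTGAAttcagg
Nuf2, chr1:169531445-169531564, minus strand: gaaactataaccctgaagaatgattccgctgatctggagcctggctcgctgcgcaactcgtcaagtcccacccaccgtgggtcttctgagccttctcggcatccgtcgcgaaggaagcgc

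Promoter windows of 300 bases (250 before the transcript start and 50 from it) were listed for 38 of the 45 genes, 40 windows in all. TTTGAA was found on either strand in 29 of the 40 windows (72.5%), against 17.9% of all 32851 windows. CCAAT was found in 31 (77.5%), against 37.4% of all windows. Both were present in 26 (65.0%), against 6.95%. A match to TTTGAA that began within 50 bases of the start was present in 26 windows (65.0%), against 4.94% of all windows. Matches to the 2 motifs can share 1 end base. These are letter matches only, with no measurement of binding. Birc5, Mad2l1, Pttg1, Nuf2, Nusap1 and Ncaph had no match to either motif in their windows, and Ccna2, Aurkb, Cdc25c, Foxm1, Kif20a, Tpx2 and Smc4 had no window listed.

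**Figure D1:**
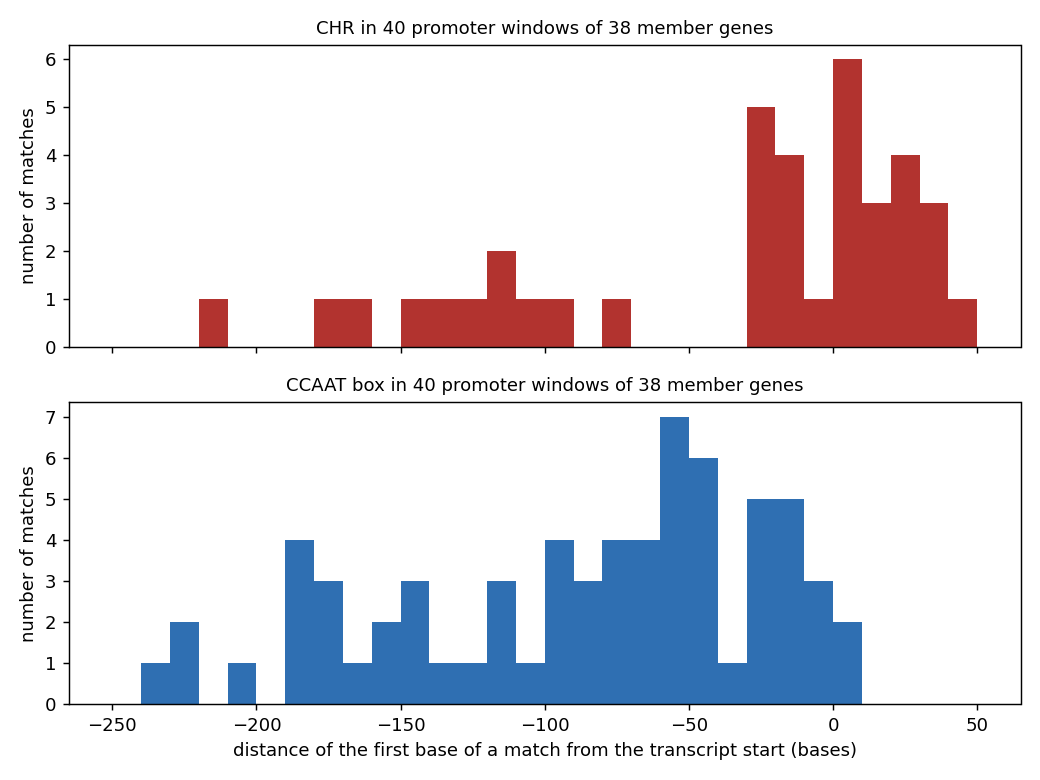
Positions of the CHR (TTTGAA, top) and the CCAAT box (bottom) in the 40 promoter windows of 38 members; the x axis is the distance in bases of the first base of a match from the transcript start, and bars give the number of matches per 10 bases. The 67 CCAAT matches had a median distance of -71.0 bases and the 38 CHR matches a median of -16.0 bases.

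All values below are log2 GC-RMA values as deposited, so that a difference of 1 is a 2-fold change. The lowest values, near 2, are called the floor here. Some members also had values gathered at a higher level. Nek2 stood at 5.15, 5.14, 5.10 and 5.13 in FVB pregnant 2 to 5, at 5.15 in MMTV-Hras 1 and at 5.11 in MMTV-H2N 4. Cdc25c stood at 5.60, 5.57, 5.61 and 5.62 in MMTV-H2N 2 to 5. Whether such levels are floors of these probe sets was not tested. Array medians lay between 6.48 and 7.48. A sample that stood apart from its group was Brca1-/-p53+/- 2. Its adipocyte marker level, the mean of 5 genes, was 13.13, above all 5 glands (10.91 to 12.07) and the other 40 tumors (2.73 to 8.88), and its skeletal muscle level was 13.93, against 2.46 to 10.50 in the other tumors. Its milk gene level was 12.43, below the glands (14.96 to 15.41) and within the range of the other tumors, and of 7 epithelial markers Krt8 and Krt18 (11.83 and 12.07) lay within the range of the glands and Epcam, Cdh1, Krt19, Cldn3 and Cldn7 (10.55, 10.65, 8.59, 7.07 and 3.68) below every gland. MMTV-Hras 1 had the lowest array median, 6.48. The epithelial marker level of the tumors ran from 5.01 to 13.25, and that of the glands from 11.05 to 12.15. The tumors below every gland were Brca1-/-p53+/- 2, 3 and 4 (9.21, 6.54 and 5.01) and MMTV-Wnt 3 (7.28). Counts that moved by over 1.5 times without Brca1-/-p53+/- 2 or MMTV-Hras 1 are given with and without them.

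The mitotic level, the mean log2 value of the 43 genes on an array, ranked the models in the order C3TAg, p53-/-, MMTV-C-Myc, MMTV-PymT, MMTV-Wnt, MMTV-H2N, Brca1-/-p53+/- and MMTV-Hras. It was 10.67 ± 0.33 in C3TAg (SD, n = 5), 9.16 ± 0.49 in p53-/- (n = 7), 8.76 ± 1.01 in MMTV-C-Myc (n = 4) and 8.51 ± 0.31 in MMTV-PymT (n = 6). It was 8.32 ± 0.70 in MMTV-Wnt (n = 4), 8.06 ± 0.38 in MMTV-H2N (n = 5), 7.82 ± 1.94 in Brca1-/-p53+/- (n = 5) and 7.77 ± 0.57 in MMTV-Hras (n = 5). The FVB pregnant glands stood at 5.71 ± 0.40 (n = 5). Of the 41 tumors, 40 lay above the highest gland (6.07), and Brca1-/-p53+/- 2, at 4.68, lay below the lowest (5.13).

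The C3TAg tumors did not overlap with any other group, at 10.74, 10.16, 10.55, 10.95 and 10.93. The spread within models differed widely: the Brca1-/-p53+/- tumors stood at 7.38, 4.68, 9.74, 8.79 and 8.49, and the MMTV-C-Myc tumors at 7.63, 8.19, 9.58 and 9.64. Without Brca1-/-p53+/- 2 the mean of that model was 8.60, which moved it from the seventh to the fourth place. Without MMTV-Hras 1 (6.81) the mean of MMTV-Hras was 8.01, still below MMTV-H2N but above Brca1-/-p53+/- (7.82), which then came last. The first 2 places were the same with any single tumor left out, and the lower places were not. The last 3 places also changed with the scaling: with arrays centred on their medians MMTV-H2N came last (7.90), after MMTV-Hras (7.94) and Brca1-/-p53+/- (8.003), and with quantile normalization Brca1-/-p53+/- did (7.85), after MMTV-Hras (7.88) and MMTV-H2N (7.95).

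**Figure D2:**
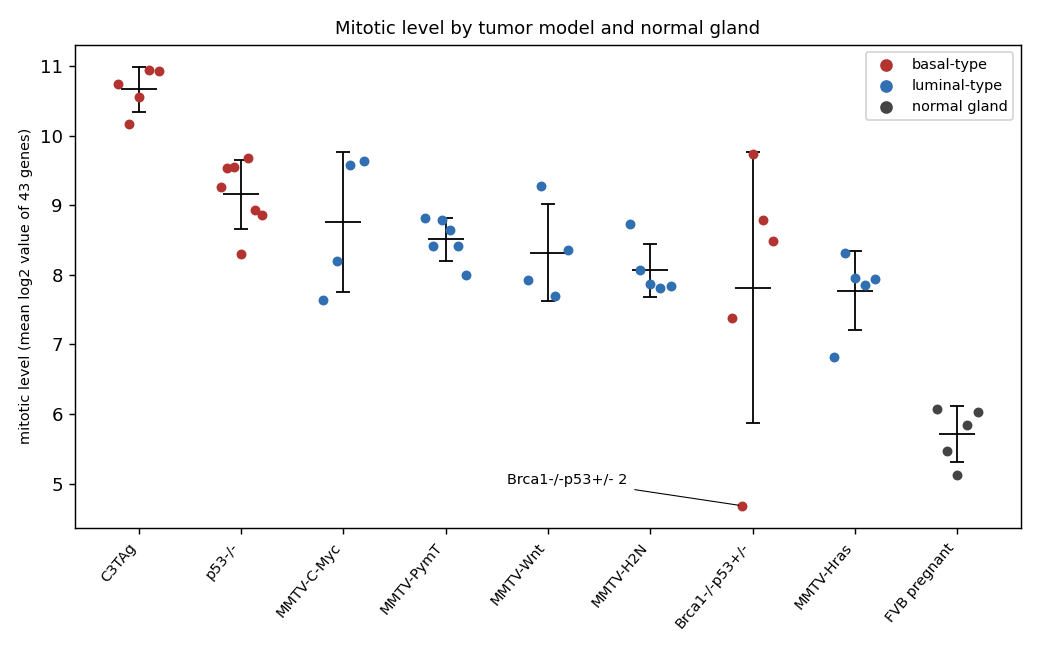
Mitotic level (mean log2 value of 43 genes, y axis) of each array by model, in order of the model means, with the FVB pregnant glands last; points are arrays, bars the mean and SD. The 5 C3TAg tumors lie between 10.16 and 10.95, above all other arrays, and Brca1-/-p53+/- 2 lies at 4.68, below the glands.

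Neighbours in this order were compared gene by gene, with p-values adjusted over all 9329 genes. Between C3TAg and p53-/-, 20 of the 43 members differed (14.8% of all genes did), all higher in C3TAg, led by Ndc80, a kinetochore protein, by 3.13 ± 0.37 (SE, adjusted p = 6.85e-08). Between p53-/- and MMTV-C-Myc, 2 members were called (11.3% of all genes). They were Kif23, 2.45 ± 0.63 higher in p53-/- (adjusted p = 0.00966), and Nuf2, without which 1 was called. The count was 1 without MMTV-C-Myc 1 or 2. Nek2 was the 1 member that differed between MMTV-C-Myc and MMTV-PymT (13.6% of all genes), by 0.96 ± 0.32 (adjusted p = 0.0388). That count was 0 without MMTV-C-Myc 3 or 4 or MMTV-PymT 1, 2, 3, 4 or 5, with an intensity trend in the fit and with the replicate number as a block. None was called between MMTV-PymT and MMTV-Wnt (12.4% of all genes), and 1 was without Brca1-/-p53+/- 3. MMTV-H2N and MMTV-Wnt differed in 2 (20.5% of all genes): Kif23 was 2.04 ± 0.68 lower in MMTV-H2N (adjusted p = 0.028) and Smc4 1.35 ± 0.41 higher (adjusted p = 0.0167). That count was 1 without MMTV-H2N 1, 2, 4 or 5 or MMTV-Wnt 2 or 3, and 4 without Brca1-/-p53+/- 2. Brca1-/-p53+/- and MMTV-H2N differed in Cdc25b, 1.50 ± 0.53 higher in Brca1-/-p53+/- (adjusted p = 0.0276; 30.6% of all genes), and Brca1-/-p53+/- and MMTV-Hras in none (22.0% of all genes). Without Brca1-/-p53+/- 2 these last 2 counts were 4 and 7. The first of them was 0 without MMTV-H2N 3, 4 or 5, 6 without Brca1-/-p53+/- 3 and 2 without Brca1-/-p53+/- 4 or 5 or FVB pregnant 1 or 3, and the second was 1 without Brca1-/-p53+/- 5. Below the first 2 models, then, few members were called between neighbours. Yet 42 of the 43 members differed somewhere among the 8 models (moderated F test, 74.5% of all genes), and 41 of 42 without Nuf2. Ube2c, at an adjusted p of 0.0504, was the exception.

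Compared with the FVB pregnant glands, the members were higher in tumors throughout the pathway. With the 8 models weighted equally, 43 of 43 members were higher and 0 lower, where 24.2% of all genes were higher. The share of all genes that was lower is not given here. Nuf2 was over the filter in 0 of 5 glands, and without it 42 of 42 members were higher. The median difference of the members was 2.78 (range 0.75 to 4.96), against 0.20 over all genes. With the arrays centred on their medians these values were 2.58 and -0.0049. The largest belonged to Ccnb2 (cyclin B2; 4.96 ± 0.61, 31.1-fold, adjusted p = 2.73e-08), Anln (anillin, which organizes the contractile ring; 4.84 ± 0.64), Aurka (Aurora A kinase; 4.78 ± 0.61), Bub1 (a checkpoint kinase; 4.48 ± 0.44) and Cenpf (a kinetochore protein; 4.48 ± 0.49). Ncapd2 (a condensin subunit), Top2a (topoisomerase II alpha) and Plk1 (Polo-like kinase 1) followed, at 4.41 ± 0.65, 4.41 ± 0.64 and 4.35 ± 0.62. Gland values of Nuf2 (mean 2.39) and Ncapd2 (mean 2.68) were near the floor, as were those of Aurka in 3 of 5 glands (2.45 to 2.69), and the size of these differences depends on it. Single glands lay at a similar level in other members too. Among them were Ccnb2 (2.83 in FVB pregnant 3), Cenpf (2.76 in FVB pregnant 1), Plk1 (2.78 and 2.81 in FVB pregnant 2 and 3) and Kif20a (2.47 in FVB pregnant 3). The smallest were those of Pttg1 (securin, 1.14 ± 0.29) and Nek2 (a centrosome kinase, 0.75 ± 0.24, adjusted p = 0.00974). A second probe set of Pttg1, with a mean of 9.15, gave a larger difference of 1.92. Nek2 lost its call when the arrays were quantile-normalized (0.60, adjusted p = 0.0515) or centred on their medians (0.55, adjusted p = 0.0741). Kif4 lost it without FVB pregnant 3 (1.15, adjusted p = 0.0732) and Cdc25c without FVB pregnant 5 (0.68, adjusted p = 0.198).

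Markers of other cells moved with this comparison. The adipocyte level (5 of 7 listed genes tested) was 10.91 to 12.07 in the glands and 2.73 to 8.88 in the tumors other than Brca1-/-p53+/- 2. The milk gene level (8 of 8) was 14.96 to 15.41 in the glands and 2.62 to 14.02 in the tumors. The skeletal muscle level (6 of 6) was 6.54 to 13.35 in the glands and 2.46 to 10.50 in those 40 tumors. Their part in the result was not tested.

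By model, the count of higher members was 43 in C3TAg (29.4% of all genes) and 43 in p53-/- (26.1%), 37 in MMTV-C-Myc (17.1%) and 36 in MMTV-PymT (20.3%). It was 32 in MMTV-Wnt (14.5%), 31 in MMTV-H2N (22.3%), 31 in Brca1-/-p53+/- (16.0%) and 32 in MMTV-Hras (14.0%). All 8 comparisons share the 5 glands. Without Nuf2, which was over the filter in 0 of these glands, 42 of 42 members were higher in C3TAg and in p53-/-. In Brca1-/-p53+/- 30 of 42 were, and the other counts did not include Nuf2. Without Brca1-/-p53+/- 2 the count in that model was 41, and without Brca1-/-p53+/- 3 it was 20. The median difference ran from 1.95 in Brca1-/-p53+/- to 4.98 in C3TAg. In all, 23 members were called in each of the 8 models, among them Aurka, Plk1, Bub1, Top2a and Mki67, and 6 were called in 3 models or fewer: Kif4, Cdc25c, Foxm1, Nek2, Nuf2 and Smc4. C3TAg and p53-/- were among the models called for all 6, as they were for all 43 members. Nuf2 had passed the filter in 5 of 5 C3TAg and 7 of 7 p53-/- tumors. No member was called lower in any model, and the shares of all genes that were lower are not given here. How many of all genes were called in each of the 8 models, or in 3 or fewer, was not counted. These tallies therefore describe the members only.

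**Figure D3:**
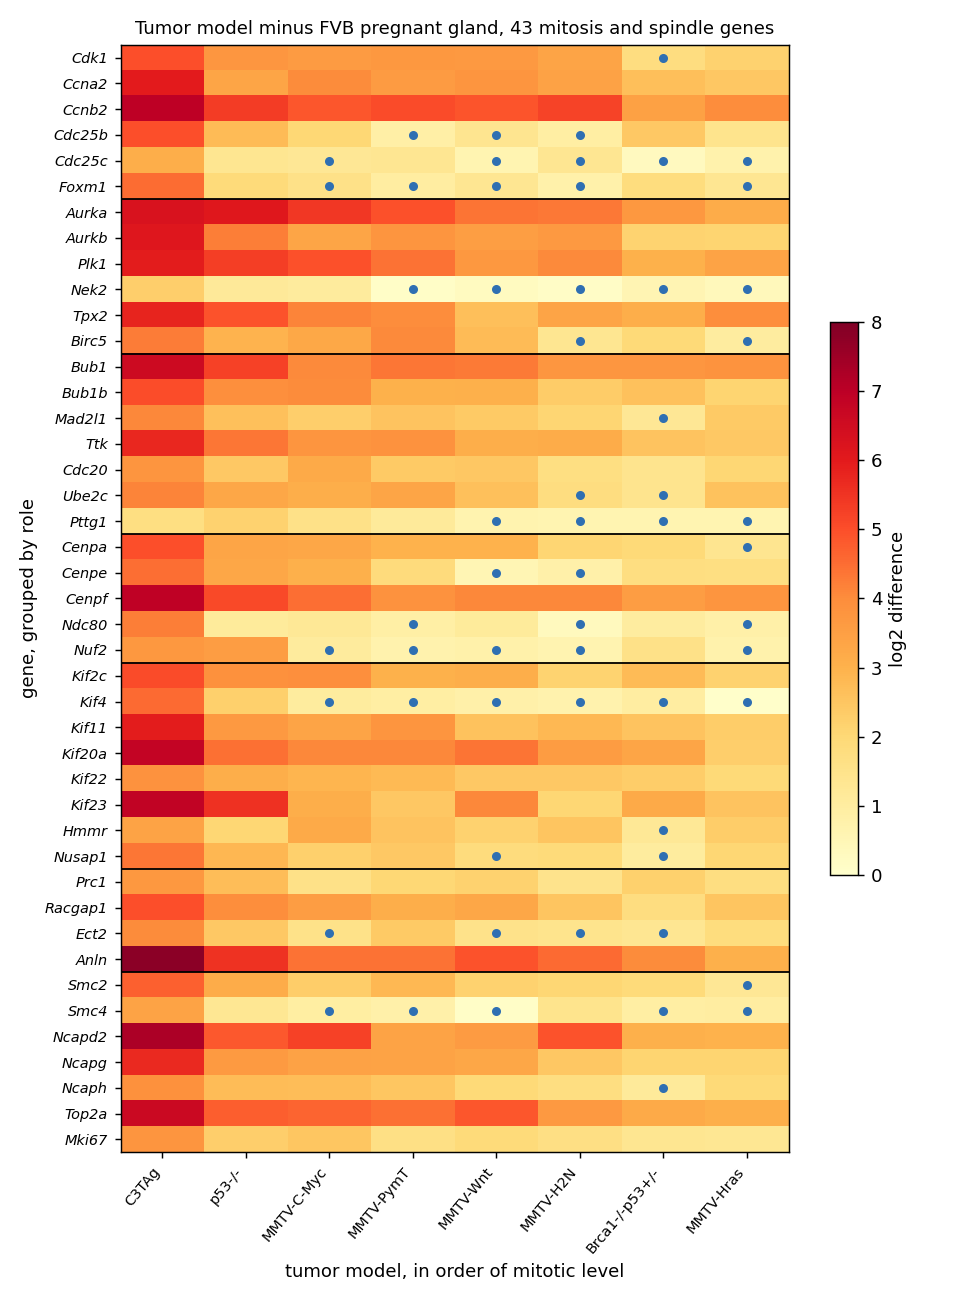
Log2 difference of each of the 8 models from the FVB pregnant glands (color scale, 0 to 8) for the 43 members, grouped by role with black lines between roles; blue dots mark differences with an adjusted p of 0.05 or more. The C3TAg and p53-/- columns hold no dot, and the dots gather in Cdc25c, Foxm1, Nek2, Nuf2, Kif4 and Smc4.

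Complete separation of tumors and glands was rarer than a difference in means. In 3 members, Bub1, Nuf2 and Kif23, all 41 tumors lay above all 5 glands, as did 0.461% of all genes. With Brca1-/-p53+/- 2 left out, 13 members separated in this way (0.975% of all genes), adding Ccnb2, Tpx2, Mad2l1, Ttk, Cdc20, Ube2c, Cenpf, Kif22, Anln and Top2a. All 3 separations were narrow, with a lowest tumor and a highest gland at 5.28 and 5.25 in Kif23, at 2.75 and 2.52 in Nuf2, near the floor, and at 5.25 and 4.90 in Bub1. Nuf2 had passed the filter on low values through tumors only. At the other end, 19 of 41 tumors lay above the highest gland in Kif4, 20 in Foxm1, 23 in Mki67 and 24 in Nek2.

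Among Cdk1, its cyclins and activators, 6 of 6 measured members were higher in tumors, by 1.25 to 4.96. Cdk1 itself, the kinase that drives entry into mitosis, stood at log2 levels of 12.29, 11.66, 11.93, 12.59 and 12.40 in C3TAg, from 9.93 to 11.58 (median 11.09) in p53-/- and 8.90, 3.14, 11.82, 10.29 and 10.67 in Brca1-/-p53+/-. In MMTV-Hras it was at 7.73, 9.77, 9.86, 9.77 and 9.58, in MMTV-H2N at 11.30, 10.61, 10.27, 10.29 and 10.30 and in MMTV-C-Myc at 9.53, 10.51, 11.63 and 11.49. It ran from 10.38 to 11.11 (median 11.00) in MMTV-PymT, and stood at 10.61, 11.50, 10.48 and 10.82 in MMTV-Wnt and at 8.43, 7.05, 5.41, 7.02 and 8.01 in the glands. All but 2 tumors, Brca1-/-p53+/- 2 and MMTV-Hras 1, exceeded the highest gland. The mean difference was 3.38 ± 0.60 (10.4-fold, adjusted p = 1.63e-05).

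Ccnb2, a B-type cyclin that activates Cdk1, was at log2 levels of 11.73, 11.61, 12.24, 12.24 and 11.75 in C3TAg, from 9.77 to 11.35 (median 10.06) in p53-/- and 8.64, 2.78, 11.05, 10.38 and 9.16 in Brca1-/-p53+/-. Its levels were 8.38, 9.04, 9.10, 9.20 and 8.95 in MMTV-Hras, 10.95, 10.13, 10.10, 9.77 and 9.84 in MMTV-H2N and 8.51, 9.09, 10.87 and 10.83 in MMTV-C-Myc. They ran from 9.03 to 10.49 (median 10.41) in MMTV-PymT and were 9.18, 10.93, 9.37 and 9.96 in MMTV-Wnt and 3.62, 5.90, 2.83, 6.23 and 6.24 in the glands. Brca1-/-p53+/- 2 was below every gland, and the other 40 tumors lay above them all. The 5 C3TAg tumors exceeded every other array.

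Cdc25b, a phosphatase that activates Cdk1, had log2 levels of 8.77, 9.23, 8.56, 9.42 and 8.71 in C3TAg, from 4.83 to 8.29 (median 6.66) in p53-/- and 6.55, 4.71, 7.88, 7.76 and 4.97 in Brca1-/-p53+/-. In the luminal models it was at 4.71, 6.19, 6.20, 5.08 and 4.80 in MMTV-Hras, at 5.43, 5.13, 4.59, 4.54 and 4.66 in MMTV-H2N and at 6.27, 4.81, 6.51 and 6.27 in MMTV-C-Myc. It ran from 4.57 to 5.10 (median 4.82) in MMTV-PymT and stood at 5.11, 6.35, 4.65 and 5.22 in MMTV-Wnt and 3.39, 3.81, 4.55, 4.66 and 3.32 in the glands. Of the tumors, 3 of MMTV-H2N, 2 of MMTV-PymT and 1 of MMTV-Wnt were not above the highest gland, while C3TAg tumors lay above all other arrays. Over the 8 models the difference from the glands was 2.10 ± 0.40 (adjusted p = 3.85e-05).

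Foxm1, the transcription factor of the late cell cycle genes, was at log2 levels of 9.13, 8.30, 9.10, 10.69 and 8.22 in C3TAg, from 5.09 to 7.43 (median 6.83) in p53-/- and 5.92, 4.40, 6.98, 7.74 and 6.81 in Brca1-/-p53+/-. It stood at 5.69, 5.47, 5.95, 6.81 and 5.59 in MMTV-Hras, at 6.20, 5.53, 5.17, 5.36 and 4.46 in MMTV-H2N and at 5.04, 4.57, 7.54 and 7.42 in MMTV-C-Myc. Levels ran from 5.04 to 6.03 (median 5.61) in MMTV-PymT, and were 7.08, 6.24, 6.30 and 3.92 in MMTV-Wnt and 5.95, 4.43, 5.03, 3.04 and 4.40 in the glands. The C3TAg tumors stood above the other 41 arrays, and 20 of 41 tumors exceeded the highest gland. The difference over the 8 models was 1.77 ± 0.46 (3.415-fold, adjusted p = 0.00169). Ccna2 (cyclin A2) differed by 3.66 ± 0.55 and Cdc25c by 1.25 ± 0.42.

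Among the mitotic kinases and their partners, 6 of 6 were higher in tumors. Aurka, which matures the spindle poles, was at log2 levels of 9.78, 8.56, 8.92, 10.05 and 10.21 in C3TAg, from 8.41 to 10.04 (median 9.32) in p53-/- and 5.42, 2.68, 9.78, 8.92 and 8.01 in Brca1-/-p53+/-. It was at 3.21, 7.56, 6.33, 7.26 and 7.48 in MMTV-Hras, at 7.98, 7.72, 7.37, 7.69 and 7.09 in MMTV-H2N and at 7.55, 8.22, 9.33 and 9.58 in MMTV-C-Myc. It ran from 7.01 to 8.80 (median 8.55) in MMTV-PymT and was 7.69, 8.50, 6.61 and 7.68 in MMTV-Wnt and 2.60, 2.69, 2.45, 3.28 and 5.20 in the glands. Unlike Cdc25b and Foxm1, Aurka in p53-/- tumors overlapped with C3TAg. Brca1-/-p53+/- 2 and MMTV-Hras 1 were within the range of the glands.

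Aurkb, the kinase of the chromosomal passenger complex that corrects spindle attachments, had log2 levels of 10.30, 9.52, 10.13, 11.00 and 10.16 in C3TAg, from 7.02 to 9.42 (median 8.47) in p53-/- and 4.79, 3.92, 8.05, 7.65 and 6.87 in Brca1-/-p53+/-. They were 4.81, 6.26, 6.97, 6.22 and 6.75 in MMTV-Hras, 8.41, 7.81, 7.52, 7.61 and 7.57 in MMTV-H2N and 6.41, 4.85, 9.40 and 9.08 in MMTV-C-Myc. They ran from 6.45 to 8.93 (median 8.26) in MMTV-PymT and were 7.82, 9.21, 5.82 and 7.64 in MMTV-Wnt and 4.82, 3.88, 3.56, 3.46 and 4.79 in the glands. The C3TAg tumors exceeded all other arrays, and 38 of 41 tumors exceeded the highest gland. The mean difference was 3.61 ± 0.53 (12.2-fold, adjusted p = 7.23e-07).

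Plk1, which acts at spindle poles, kinetochores and the midbody, was at log2 levels of 9.76, 9.04, 9.15, 9.74 and 10.21 in C3TAg, from 8.12 to 9.82 (median 8.85) in p53-/- and 5.22, 2.30, 9.33, 7.71 and 8.63 in Brca1-/-p53+/-. It was at 3.44, 8.49, 8.09, 7.32 and 7.64 in MMTV-Hras, 8.57, 7.64, 7.29, 7.67 and 7.23 in MMTV-H2N and 7.06, 7.87, 9.46 and 9.91 in MMTV-C-Myc. It ran from 7.39 to 8.75 (median 8.06) in MMTV-PymT and stood at 7.18, 8.69, 6.56 and 6.92 in MMTV-Wnt and 3.94, 2.78, 2.81, 4.70 and 3.88 in the glands. The same 2 tumors, Brca1-/-p53+/- 2 and MMTV-Hras 1, lay below the highest gland. Tpx2, which activates Aurora A on the spindle, differed by 3.99 ± 0.52 (15.9-fold).

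Birc5 (survivin), a partner of Aurora B that also restrains apoptosis, stood at log2 levels of 11.30, 10.74, 11.36, 11.20 and 11.52 in C3TAg, from 9.28 to 10.68 (median 9.62) in p53-/- and 9.25, 3.69, 11.91, 9.54 and 10.13 in Brca1-/-p53+/-. It was at 6.45, 8.24, 8.57, 8.32 and 8.24 in MMTV-Hras, 8.98, 8.38, 8.25, 7.93 and 8.07 in MMTV-H2N and 9.52, 9.52, 10.99 and 10.85 in MMTV-C-Myc. It ran from 9.58 to 12.51 (median 11.18) in MMTV-PymT and was 9.71, 10.50, 9.17 and 9.53 in MMTV-Wnt and 7.53, 6.71, 5.90, 7.09 and 7.55 in the glands. Its highest value lay in a MMTV-PymT tumor and not in C3TAg. The difference over the 8 models was 2.70 ± 0.56 (6.50-fold, adjusted p = 0.00016).

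In the spindle checkpoint and anaphase-promoting complex, 7 of 7 were higher in tumors, by 1.14 to 4.48. Bub1, which marks unattached kinetochores, was at log2 levels of 11.08, 10.12, 10.75, 11.31 and 11.82 in C3TAg, from 8.63 to 10.48 (median 9.77) in p53-/- and 7.33, 5.25, 10.12, 9.28 and 8.82 in Brca1-/-p53+/-. It was at 7.80, 9.06, 7.67, 8.27 and 8.55 in MMTV-Hras, 8.89, 8.39, 7.65, 8.21 and 7.70 in MMTV-H2N and 6.64, 7.89, 9.66 and 9.76 in MMTV-C-Myc. It ran from 7.90 to 9.40 (median 9.06) in MMTV-PymT and stood at 7.79, 9.79, 8.22 and 9.09 in MMTV-Wnt and 4.81, 4.90, 3.92, 3.92 and 4.60 in the glands. Every tumor, Brca1-/-p53+/- 2 included, was above the highest gland. The difference was 4.48 ± 0.44 (22.2-fold, adjusted p = 1.89e-10). A dimmer probe set of Bub1, with a mean of 3.22, was not called (-0.21).

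Mad2l1, the checkpoint protein that captures Cdc20, was at log2 levels of 11.81, 11.78, 11.79, 12.06 and 12.48 in C3TAg, from 9.26 to 11.77 (median 10.28) in p53-/- and 9.43, 5.86, 10.75, 9.39 and 10.33 in Brca1-/-p53+/-. It was at 10.33, 11.01, 10.53, 9.47 and 10.03 in MMTV-Hras, 10.53, 9.78, 9.76, 9.97 and 9.78 in MMTV-H2N and 9.25, 9.46, 11.06 and 10.84 in MMTV-C-Myc. It ran from 9.86 to 10.74 (median 10.44) in MMTV-PymT and was 10.07, 11.63, 9.19 and 10.24 in MMTV-Wnt and 8.72, 7.19, 7.97, 7.64 and 7.96 in the glands. Brca1-/-p53+/- 2 was below every gland and the other 40 tumors above every gland. The difference was 2.45 ± 0.41 (5.46-fold, adjusted p = 6.77e-06).

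Cdc20, the activator of the anaphase-promoting complex that Mad2l1 holds back, stood at log2 levels of 13.01, 12.90, 13.16, 13.59 and 12.93 in C3TAg, from 11.41 to 12.52 (median 11.60) in p53-/- and 11.36, 7.16, 12.06, 11.52 and 11.71 in Brca1-/-p53+/-. It was at 11.21, 11.98, 11.05, 11.27 and 11.57 in MMTV-Hras, 10.90, 11.25, 11.10, 11.00 and 11.09 in MMTV-H2N and 11.87, 12.13, 13.02 and 13.20 in MMTV-C-Myc. It ran from 10.93 to 12.08 (median 11.95) in MMTV-PymT and was 11.51, 12.23, 11.03 and 12.40 in MMTV-Wnt and 9.79, 8.69, 8.48, 10.10 and 9.70 in the glands. Here 2 MMTV-C-Myc tumors reached the C3TAg range, and 40 tumors exceeded the glands. The difference was 2.43 ± 0.38 (5.38-fold, adjusted p = 1.99e-06). The checkpoint kinases Bub1b and Ttk differed by 3.26 ± 0.47 and 3.62 ± 0.48, Ube2c, the ubiquitin-conjugating enzyme of the complex, by 2.78 ± 0.61, and Pttg1 by 1.14 ± 0.29.

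At the centromere and kinetochore, 5 of 5 were higher, among them Nuf2, which had passed the filter on low values through tumors only. Cenpf and Cenpa, the histone H3 variant of centromeres, differed by 4.48 ± 0.49 and 2.87 ± 0.44. Cenpe, a kinetochore motor, differed by 2.18 ± 0.40. Ndc80 and Nuf2, which pair in the complex that grips microtubules, differed by 1.35 ± 0.30 and 1.59 ± 0.36. Nuf2 stood at log2 levels of 5.92, 5.50, 5.53, 6.57 and 6.91 in C3TAg, from 4.11 to 7.96 (median 6.23) in p53-/- and 3.30, 3.03, 5.94, 3.30 and 4.18 in Brca1-/-p53+/-, and 2.52, 2.34, 2.33, 2.42 and 2.32 in the glands. In the luminal models it was 2.91, 3.98, 2.89, 2.90 and 2.92 in MMTV-Hras, 3.15, 3.08, 2.90, 2.88 and 3.08 in MMTV-H2N and 2.75, 2.96, 4.78 and 3.40 in MMTV-C-Myc. It ran from 2.87 to 3.47 (median 2.95) in MMTV-PymT and was 2.96, 3.76, 2.91 and 2.99 in MMTV-Wnt. C3TAg and p53-/- therefore stood above the floor in every tumor, and most luminal tumors near it.

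Among kinesins and spindle microtubule proteins, 8 of 8 were higher. Kif20a and Kif23, which act on the central spindle, differed by 4.12 ± 0.57 and 3.73 ± 0.48. Kif11, which pushes the spindle poles apart, Kif2c, which removes faulty attachments, and Kif22, which pushes chromosome arms outward, differed by 3.37 ± 0.51, 3.25 ± 0.43 and 2.72 ± 0.33. The microtubule proteins Hmmr and Nusap1 differed by 2.42 ± 0.39 and 2.34 ± 0.51. Kif4, a motor that binds chromosomes, differed by 1.41 ± 0.46 (adjusted p = 0.0123). Kif23 had 2 dimmer probe sets, with means of 4.32 and 2.49, that were not called (1.04, adjusted p = 0.0825, and -0.14).

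Kif23 stood at log2 levels of 10.86, 10.41, 10.54, 10.89 and 10.77 in C3TAg, from 8.54 to 10.12 (median 9.50) in p53-/- and 5.28, 6.04, 10.15, 8.41 and 5.30 in Brca1-/-p53+/-. It was at 7.38, 6.61, 5.93, 6.06 and 5.83 in MMTV-Hras, 7.23, 5.54, 5.87, 5.32 and 5.45 in MMTV-H2N and 5.28, 5.83, 8.41 and 8.19 in MMTV-C-Myc. It ran from 5.63 to 7.00 (median 6.21) in MMTV-PymT and was 7.30, 9.44, 7.33 and 7.62 in MMTV-Wnt and 3.47, 3.48, 3.41, 5.25 and 3.55 in the glands. C3TAg was above all other arrays, and no MMTV-PymT, MMTV-H2N, MMTV-Hras or MMTV-C-Myc tumor reached the lowest p53-/- tumor.

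In cytokinesis, 4 of 4 were higher, with Anln at 4.84 ± 0.64, Racgap1 at 3.21 ± 0.52, Prc1, which bundles midzone microtubules, at 2.20 ± 0.36 and Ect2, the exchange factor that activates RhoA, at 2.06 ± 0.47. Among the genes of chromosome structure, 7 of 7 were higher. The condensin subunits Ncapd2, Ncapg, Smc2, Ncaph and Smc4 differed by 4.41 ± 0.65, 3.27 ± 0.49, 2.54 ± 0.38, 2.33 ± 0.45 and 1.24 ± 0.29.

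Top2a, which untangles sister DNA, was at log2 levels of 12.88, 12.38, 12.79, 13.03 and 12.59 in C3TAg, from 10.42 to 12.00 (median 10.69) in p53-/- and 9.68, 2.52, 12.47, 11.18 and 10.63 in Brca1-/-p53+/-. It was at 7.97, 9.72, 9.68, 9.03 and 9.54 in MMTV-Hras, 10.51, 9.97, 9.66, 9.32 and 9.51 in MMTV-H2N and 10.07, 10.12, 11.47 and 11.32 in MMTV-C-Myc. It ran from 9.92 to 11.14 (median 10.43) in MMTV-PymT and was 10.79, 11.45, 10.78 and 10.83 in MMTV-Wnt and 6.59, 6.24, 4.91, 6.28 and 6.52 in the glands. The 40 tumors other than Brca1-/-p53+/- 2 lay above all glands. The difference was 4.41 ± 0.64 (21.2-fold, adjusted p = 5.97e-07).

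Mki67 (Ki-67), which coats mitotic chromosomes and is the common marker of proliferation, was at log2 levels of 13.09, 12.18, 12.61, 13.07 and 13.07 in C3TAg, from 10.75 to 12.23 (median 11.05) in p53-/- and 11.13, 8.44, 11.30, 10.67 and 10.48 in Brca1-/-p53+/-. It was at 8.93, 10.91, 11.11, 10.38 and 10.49 in MMTV-Hras, 11.31, 10.77, 10.49, 10.37 and 10.64 in MMTV-H2N and 10.65, 11.62, 11.92 and 11.97 in MMTV-C-Myc. It ran from 9.91 to 11.19 (median 10.75) in MMTV-PymT and was 10.88, 11.75, 9.73 and 11.39 in MMTV-Wnt and 9.51, 8.35, 7.40, 10.78 and 9.22 in the glands. FVB pregnant 4, at 10.78, overlapped with tumors of 7 models, and 23 of 41 tumors exceeded it. The difference was 2.04 ± 0.37 (4.12-fold, adjusted p = 2.05e-05).

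**Figure D4:**
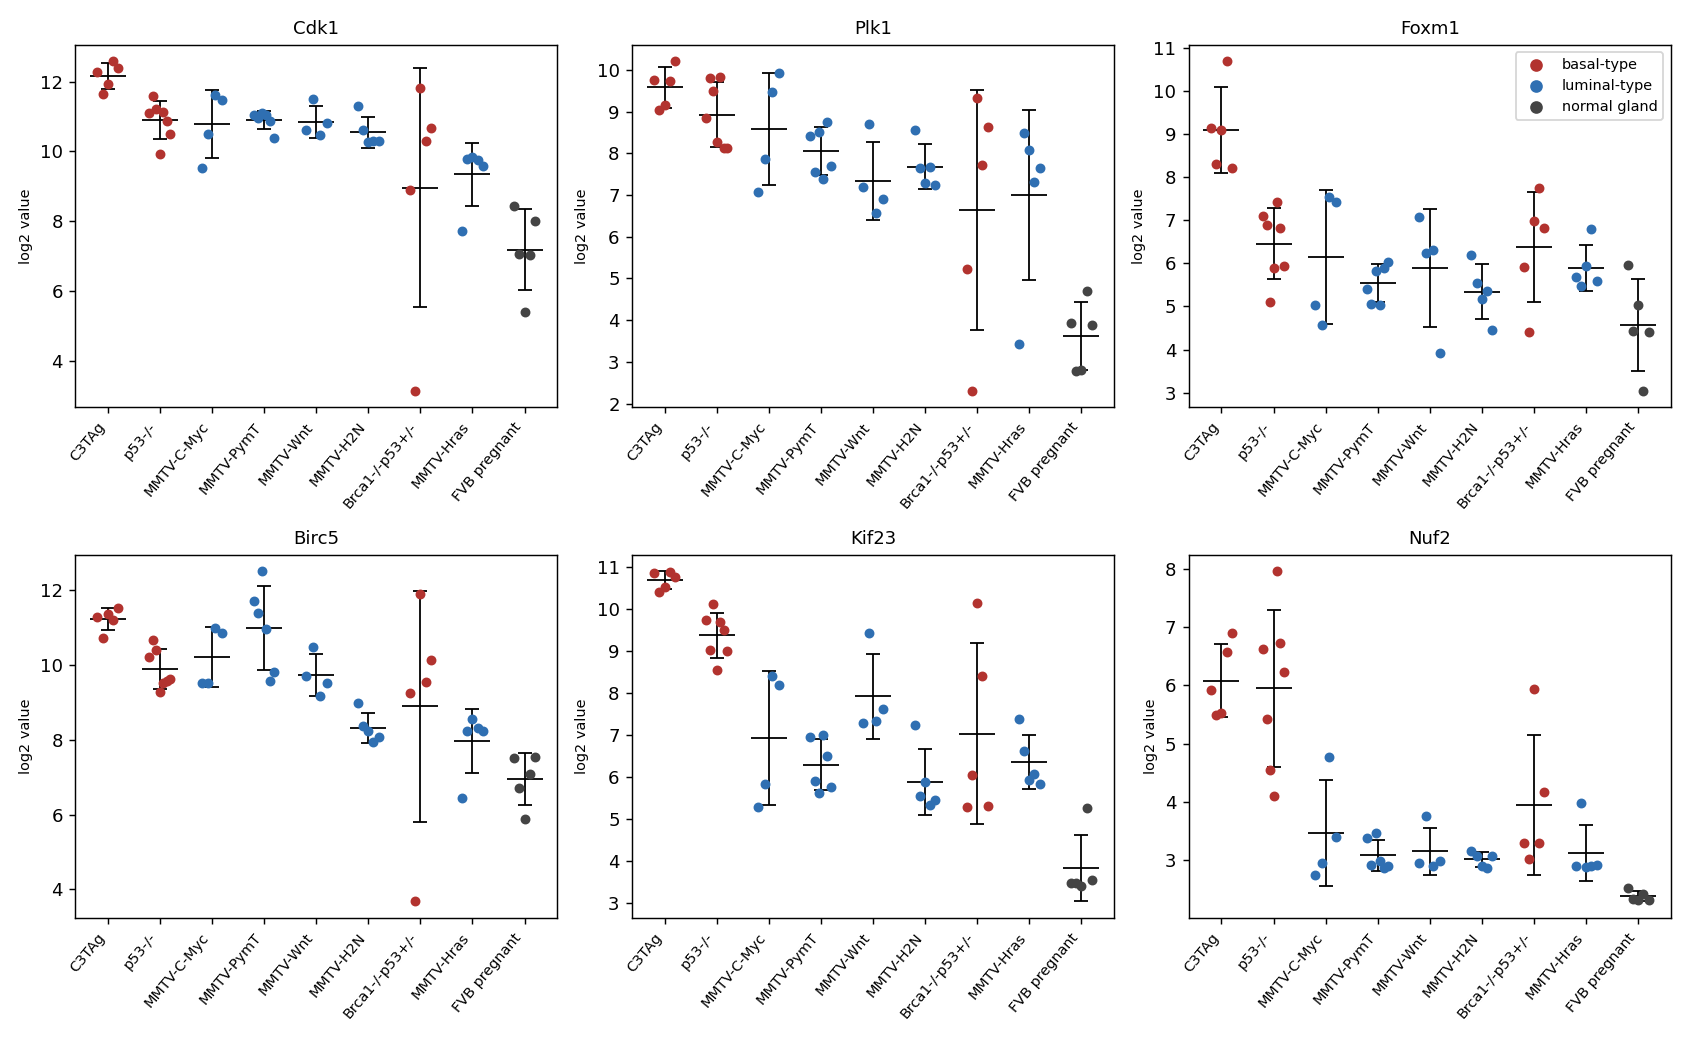
Log2 values (y axis) of Cdk1, Plk1, Foxm1, Birc5, Kif23 and Nuf2 on each array by model, in order of mitotic level, with the FVB pregnant glands last; points are arrays (red basal, blue luminal, gray gland), bars the mean and SD. C3TAg stands above all other arrays in Foxm1 and Kif23, Birc5 reaches its highest value in MMTV-PymT (12.51), and Nuf2 is near the floor in most luminal tumors.

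Other probe sets were available for 19 of the 43 members. Of these 29 further probe sets, 20 were higher in tumors than in glands, 0 were lower and 9 were not called. Of the 9, 8 had a mean log2 value under 4, and the other was the probe set of Kif23 with a mean of 4.32.

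C3TAg against the mean of the other 7 models gave the most calls: 41 of 43 members were higher (19.5% of all genes) and 0 lower, with a median difference of 2.32. Without Nuf2, 40 of 42 were higher. The share of all genes called lower is not given for the 0 here, in p53-/- or between the classes. Nor is the share called higher given for the 0 in Brca1-/-p53+/-. Kif4, Kif23 and Anln led, by 3.59 ± 0.46 (12.0-fold, adjusted p = 1.8e-07), 3.58 ± 0.48 (11.95-fold, adjusted p = 4.56e-07) and 3.37 ± 0.65 (10.3-fold, adjusted p = 0.000123). All measured members were called in every role except the checkpoint and anaphase-promoting complex, where 5 of 7 were. Pttg1 (0.64) and Ube2c (1.54) did not pass. The second probe set of Pttg1, with a mean of 9.15, was 1.51 higher in C3TAg by group means, with no test given here. In 21 members the 5 C3TAg tumors lay above all other 41 arrays, as did 2.05% of all genes. The gaps varied: the lowest C3TAg tumor stood at 9.59 in Ndc80 against 8.73 in the highest other array, and at 7.08 in Nek2 against 7.06.

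In p53-/- tumors 4 members were higher than in the other models (10.6% of all genes) and 0 lower: Kif23 by 2.07 ± 0.42 (4.21-fold, adjusted p = 0.000617), Cenpe by 1.27 ± 0.35 (adjusted p = 0.00974), Pttg1 by 1.18 ± 0.26 (adjusted p = 0.0013), and Nuf2. The mean of Nuf2 was 5.95, against 6.08 in C3TAg, 3.95 in Brca1-/-p53+/- and 3.02 to 3.47 in the luminal models. C3TAg also had higher means than p53-/- in Kif23 (10.69 against 9.38) and Cenpe (7.92 against 6.73), and a lower one in Pttg1 (11.92 against 12.39). A share of 4 in 43, or of 3 in 42 without Nuf2, was below that of all genes. In MMTV-PymT 1 member, Birc5, was higher (10.9% of all genes), by 1.53 ± 0.53 (2.89-fold, adjusted p = 0.0375). That call was lost without any of MMTV-PymT 1, 2, 3 or 4 (adjusted p from 0.0709 to 0.15). In the same model 4 members were lower (6.89% of all genes), led by Kif23 (-1.45 ± 0.45, adjusted p = 0.0215) and Cdc25b (-1.41 ± 0.37, adjusted p = 0.00726). Kif23 was not called without MMTV-PymT 2, 3 or 6 (adjusted p from 0.0553 to 0.074). Nuf2, with 0 of 6 MMTV-PymT tumors over 4, was among the 4, and 3 members were lower without it. It lost its call without any single MMTV-PymT tumor and after quantile normalization. The count of 4 fell to 1 without MMTV-PymT 2 and to 2 without MMTV-PymT 3, 4 or 6. No member differed in MMTV-C-Myc in either direction (9.52% of all genes); without Brca1-/-p53+/- 2, 1 was higher.

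MMTV-Hras had 15 lower members (14.8% of all genes), and 14 without Nuf2. They were led by Kif20a (-2.13 ± 0.58, adjusted p = 0.00606), Anln (-2.04 ± 0.65, adjusted p = 0.0184) and Birc5 (-1.93 ± 0.57, adjusted p = 0.011). Without MMTV-Hras 1 the count was 5 and none of these 3 was called (adjusted p from 0.0758 to 0.0922). It was 9 without MMTV-Hras 3 and 23 without Brca1-/-p53+/- 2. MMTV-H2N had 8 lower members (9.07% of all genes), and 7 without Nuf2. They were led by Kif23 (-1.92 ± 0.48, adjusted p = 0.00328), Cenpe (-1.58 ± 0.40, adjusted p = 0.00333) and Birc5 (-1.53 ± 0.57, adjusted p = 0.0431). The Birc5 call was lost without any single MMTV-H2N tumor or without MMTV-C-Myc 3 (adjusted p from 0.0516 to 0.109). The count was 4 or 5 without MMTV-H2N 2, 3, 4 or 5 and 16 without Brca1-/-p53+/- 2. MMTV-Wnt had 2 lower members (3.69% of all genes), Cenpe (-1.88 ± 0.44, adjusted p = 0.00621) and Smc4 (-1.30 ± 0.33, adjusted p = 0.0103). Smc4 was not called over the mean of its 3 probe sets (-0.29, adjusted p = 0.681) or without MMTV-Wnt 1, and neither was called without MMTV-Wnt 3.

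In Brca1-/-p53+/- 9 members were lower (11.9% of all genes) and 0 higher, led by Cdk1 (-1.83 ± 0.60, adjusted p = 0.0303), Ccnb2 (-1.74 ± 0.62, adjusted p = 0.0436) and Aurkb (-1.67 ± 0.53, adjusted p = 0.0256). Without Brca1-/-p53+/- 2, 0 were lower, and these 3 differences were -0.37, -0.33 and -1.08 (adjusted p = 0.582, 0.672 and 0.212). Without Brca1-/-p53+/- 1 the count was 2 and none of the 3 was called, and without Brca1-/-p53+/- 3 or 5 it was 25 and 14. The marker values of Brca1-/-p53+/- 2 are given above, and their part in these differences was not tested.

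The study grouped its models by lineage, and the members were compared between the 17 basal-type and 24 luminal-type tumors. With tumors taken as independent, 17 of 43 members were higher in basal-type tumors and 0 lower (15.9% of all genes were higher), with a median difference of 0.92 against 0.06 over all genes. The largest were Kif23 (2.48 ± 0.45, 5.565-fold, adjusted p = 0.000128), Cdc25b (2.04 ± 0.35, adjusted p = 6.24e-05), Kif4 (1.86 ± 0.41, adjusted p = 0.00101) and Cenpe (1.60 ± 0.39, adjusted p = 0.00253). Nuf2, the other of the 5 largest, stood over 4 in 14 of 17 basal-type and 1 of 24 luminal-type tumors, and without it 16 members were called. By role, 4 of 5 centromere and kinetochore genes were called, Nuf2 among them, but 1 of 6 mitotic kinases and partners. Cdk1 (0.23) and Cdc20 (0.20) were not called.

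This class difference depended on how the models were treated. With the model as a random block (within-model correlation 0.313), 1 member was called (0.204% of all genes). It was Nuf2, which passed the filter on low values through the basal-type tumors, and 0 of the other 42 were called. Cdc25b, Kif23, Kif4 and Cenpe had adjusted p of 0.0533, 0.0699, 0.111 and 0.146. Without Brca1-/-p53+/- 2 the count with tumors taken as independent was 38, and without C3TAg 4 it was 13. On FVB arrays alone, where C3TAg was the one basal-type model left, it was 43. The mitotic level of the basal-type models spanned the order, with C3TAg and p53-/- first and Brca1-/-p53+/- seventh.

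Within the arrays the members varied together. The correlation of each member with the mean of the other 42, over the 46 arrays, had a median of 0.919 and ran from 0.717 to 0.968, and 25 of 43 members were at 0.9 or more. These arrays include the large steps between groups. After the group means were taken out, the median was 0.832 and the range 0.446 to 0.945. Brca1-/-p53+/- 2, at a mitotic level of 4.68 in a group with a mean of 7.82, was included. The correlations without it were not computed, so how far they rest on that array is not known. Ncapg (0.968), Cenpa (0.959) and Bub1 (0.956) followed the rest most closely. Nek2 (0.717), Nuf2 (0.721), Foxm1 (0.738), Pttg1 (0.739) and Cdc25c (0.763) did so least, with within-group values of 0.446, 0.535, 0.488, 0.600 and 0.591. Many values of Nuf2 lay near the floor, and those of Nek2 and Cdc25c gathered at a level in several groups. The part of this in their correlations was not tested.

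Genes of the same pathway outside the list were counted in the same way. Of 114 other mitotic genes, 79 were tested, and 62 were higher in tumors than in glands and 1 lower, with a median difference of 1.38. Of all genes, 24.2% were higher in this comparison, with a median difference of 0.20. The share of all genes that was lower is not given here. The largest were Spag5 (astrin, 4.62 ± 0.76, adjusted p = 4.57e-06), Psrc1 (4.29 ± 0.90, adjusted p = 0.00017) and Aspm (4.01 ± 0.53, adjusted p = 1.11e-07), all spindle proteins. Anapc13, a subunit of the anaphase-promoting complex, was the 1 that was lower (-0.53 ± 0.17, adjusted p = 0.0135). Of 53 DNA replication genes, 48 were tested, and 39 were higher and 1 lower, with a median of 2.36. Tk1 (thymidine kinase), Rfc5 (a clamp loader subunit) and Mcm5 (a helicase subunit) rose by 4.39 ± 0.69, 4.06 ± 0.52 and 3.75 ± 0.60, and Pold3, a polymerase subunit, fell by 1.10 on the log2 scale (adjusted p = 4.65e-05).

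The replication level, the mean log2 value of the 48 genes, ordered the models as the mitotic level did except that MMTV-Wnt (8.60 ± 0.62) and MMTV-PymT (8.56 ± 0.32) changed places. It was 10.50 ± 0.17 in C3TAg, 7.68 ± 0.36 in MMTV-Hras and 6.56 ± 0.32 in the glands, and Brca1-/-p53+/- 2 was at 5.93, below every gland (6.14 to 7.00). The level of the 79 other mitotic genes gave the same order as the members.

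**Figure D5:**
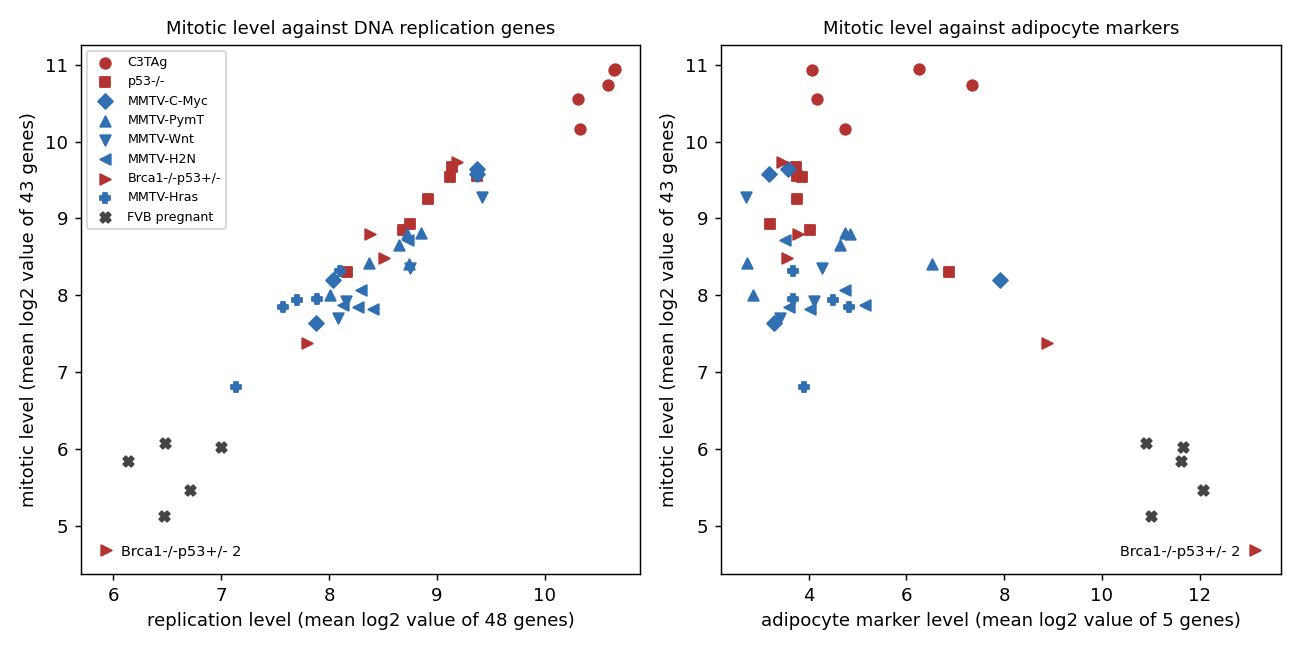
Mitotic level of each array (y axis, mean log2 value of 43 genes) against the level of 48 DNA replication genes (left x axis) and of 5 adipocyte markers (right x axis); each point is an array, colored by class (red basal, blue luminal, gray gland) with a symbol for each group. On the left the arrays rise from Brca1-/-p53+/- 2 (5.93, 4.68) to C3TAg, and on the right the glands and Brca1-/-p53+/- 2 lie apart from the other 40 tumors.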

How the data were processed

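Total RNA of 41 mouse mammary tumors and 5 normal glands was measured with 1 Affymetrix mouse genome array each. The authors collected scans in GCOS, computed GC-RMA values in Partek and deposited them as log2 values. Per the methods they had first dropped any probe set that MAS5 called present or marginal on fewer than 3 arrays. GC-RMA corrects background by probe GC content, and the lowest values lay near 2, so fold changes from that level depend on the floor. Versions of these tools, and any scan batch, are not given in the sources used here. The miRNA arrays were not used.

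In the table were 18586 probe sets, with 0 missing values. Of these, 16962 were annotated to a single gene, 569 to several and 1055 to none, and 16941 were found by gene ID in RefSeq (GRCm38.p6), which supplied symbols. Probe sets over a log2 value of 4 in at least 3 arrays were kept (14843 with a single gene), and for each gene the one with the highest mean, giving 9329 genes. Groups came from sample titles. No 2 arrays of a group were identical, and their highest correlation was 0.9949. Arrays have no read depth, so the 4 to 7 arrays per group limit the precision. In the group-means fit, p-values rest on a single spread per gene within groups, shared by the tumors of all models and the glands. The groups differed in their spread, so leaving out an array of another group can move the count of a comparison.

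A group-means model of all 46 arrays was fitted in limma 3.58.1 (lmFit, eBayes; R 4.3.3), and the class comparison on the 41 tumors, with statmod 1.5.0 for the random block. The fit was tried on simulated data with independent noise and the same spread of a gene in every group. The real arrays differ from that setting, so the trial does not bear on the calls made here. Adjusted p are Benjamini-Hochberg values over all genes of a contrast, called under 0.05. A ± is an SE unless named SD. Alternatives were quantile normalization, median centring, no filter, the mean of a gene's probe sets, an intensity trend, FVB arrays only, the replicate number as a block, the model as a random block and each array left out. Promoter windows and figures were made in Python 3.11.15 with pandas 2.3.3 and matplotlib 3.10.9.

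The members, gene lists and comparisons were chosen with earlier results of these data known. Values by array, or the range and median in groups of over 5, are given for 12 measured genes listed by name, for Ccnb2 as the largest difference from the glands and for Kif23 and Nuf2, chosen after their values were seen. The rule further named the 8 largest differences from the glands, the 5 largest between classes, up to 3 per direction for each model, the 5 members least like the rest, members whose probe sets disagree, and 3 per direction among other mitotic and replication genes.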

Additional observations from a re-analysis of the deposited data

Results flagged for a closer look

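A sample far from the others of its group was looked for in 126 sets of group values, with the gap to the nearest other sample given as a share of the whole range of the group (Dixon's ratio). In 16 sets the ratio exceeded its 95% critical value, where chance gives about 1 in 20. No explanation for these was tested.

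Brca1-/-p53+/- 2 was the low sample in 4 of them: Mad2l1 at a log2 value of 5.86 (ratio 0.723), Cdc20 at 7.16 (0.856), Top2a at 2.52 (0.719) and Mki67 at 8.44 (0.714). MMTV-Hras 1 was the low sample in another 4: Cdk1 at 7.73 (ratio 0.87), Plk1 at 3.44 (0.768), Aurka at 3.21 (0.718) and Birc5 at 6.45 (0.844). MMTV-H2N 1 stood above its group in the mitotic level, at 8.72 (ratio 0.726), and in Mad2l1, at 10.53 (0.724). MMTV-PymT 6 stood below its group in Cdk1, at 10.38 (ratio 0.689), and in Mad2l1, at 9.86 (0.6252). Cdc25b was low in MMTV-C-Myc 2, at 4.81 (ratio 0.855).

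Top2a accounted for the other 3. It was high in p53-/- 3, at 12.00 (ratio 0.744), and in MMTV-Wnt 2, at 11.45 (0.927). In FVB pregnant 3 it was at 4.91 (ratio 0.79).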

How the results depend on the processing

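No difference of a named gene changed sign under any alternative, but the order of the last 3 models by mitotic level changed with median centring and quantile normalization. Counts of members are given here under the settings that moved them by over 1.5 times; leaving out the filter on low values moved none that far and lost no call. After quantile normalization 7 members were lower in MMTV-Hras and 2 differed between Brca1-/-p53+/- and MMTV-H2N. After median centring 5 were lower in Brca1-/-p53+/-, 8 in MMTV-Hras and 13 in MMTV-H2N, and 3 differed between Brca1-/-p53+/- and MMTV-H2N. With the mean of all probe sets of a gene 1 was lower in MMTV-Wnt and 0 differed between MMTV-H2N and MMTV-Wnt, and the mitotic level was 10.13 in C3TAg, 8.53 in p53-/-, 7.18 in MMTV-Hras, 7.51 in MMTV-H2N, 7.94 in MMTV-PymT and 5.28 in the glands. On FVB arrays alone 43 members were higher in the basal class, 25 were lower in MMTV-Hras and 16 in MMTV-H2N, 1 was higher in MMTV-C-Myc, and 2, 1 and 4 differed between MMTV-C-Myc and MMTV-PymT, MMTV-PymT and MMTV-Wnt, and MMTV-H2N and MMTV-Wnt. With an intensity trend 0 differed between MMTV-C-Myc and MMTV-PymT. With the model as a random block 1 was higher in the basal class. Same-numbered samples of different groups (166 pairs) had a mean correlation of deviations of 0.0144 (lowest -0.332), against a mean of -0.00306 for other pairs. A mean over all pairs cannot tell whether some of them shared a batch. With that replicate number as a block 12 members differed between C3TAg and p53-/- and 0 between MMTV-C-Myc and MMTV-PymT, with no other count moved by over 1.5 times and no call of a named gene lost. Ccnb2 in Brca1-/-p53+/- was not called after quantile normalization (-1.76, adjusted p = 0.0534) or median centring (-1.52, adjusted p = 0.0628), nor without any of C3TAg 4, MMTV-C-Myc 3 or 4, MMTV-H2N 1, MMTV-Wnt 2 or 4, or MMTV-PymT 1 or 3 (adjusted p from 0.0501 to 0.0543).

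With each array left out in turn, members higher than in glands were 20 to 41 in Brca1-/-p53+/-, and members higher in the basal class 13 to 38. Lower members were 0 to 25 in Brca1-/-p53+/-, 5 to 23 in MMTV-Hras, 4 to 16 in MMTV-H2N, 1 to 4 in MMTV-PymT and 0 to 3 in MMTV-Wnt, and higher members 0 to 1 in MMTV-C-Myc and 0 to 1 in MMTV-PymT. Differing members were 12 to 28 between C3TAg and p53-/- (12 or 13 without C3TAg 1, 4 or 5 or p53-/- 4, and 28 without Brca1-/-p53+/- 2), 1 to 2 between p53-/- and MMTV-C-Myc, 0 to 1 between MMTV-C-Myc and MMTV-PymT, 0 to 1 between MMTV-PymT and MMTV-Wnt, 1 to 4 between MMTV-H2N and MMTV-Wnt, 0 to 6 between Brca1-/-p53+/- and MMTV-H2N and 0 to 7 between Brca1-/-p53+/- and MMTV-Hras. The cause of these changes was not tested. Gland values of Nuf2, Ncapd2 and Aurka near the floor of about 2 limit the size of their differences, as do luminal values of Nuf2. Single low gland values, as in Ccnb2, Cenpf, Plk1 and Kif20a, do so in part. The 4 to 7 arrays a group limit every comparison.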
